A study of Mus musculus with 16 samples.

Results

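The genes described here are 52 genes of mitosis and chromosome segregation, among 32166 genes in a table of read counts from mouse brain microglia/macrophages. They were taken by gene symbol from a list chosen with earlier results of these data known, and all 52 were found. The samples were 16 RNA libraries of cells isolated on day 3 after a sham procedure or after MCAO (middle cerebral artery occlusion, a stroke model in which a brain artery is blocked and reopened), from C57BL/6 mice aged 10 to 12 weeks. Control mice carried floxed alleles of the vitamin D receptor gene (Vdrf/f), and Vdr-cKO mice carried the same alleles with a tamoxifen-inducible Cre recombinase in 1 allele of Cx3cr1 (Cx3cr1CreER/+; Vdrf/f). There were 5 sham control, 3 sham Vdr-cKO, 4 MCAO control and 4 MCAO Vdr-cKO libraries. The methods state that male mice were used and that the mice were given tamoxifen before surgery. Cre expressed from Cx3cr1 acts in microglia and in other Cx3cr1-expressing macrophages, and Vdr-cKO mice have only 1 intact Cx3cr1 allele, so that loss of Vdr and of that allele cannot be told apart.

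Cells that divide copy their DNA and then build a spindle of microtubules, which attaches to the kinetochore of each chromosome and pulls the copies apart before the cell is cleaved. Cyclin-dependent kinase 1 with cyclin B starts this process, and the anaphase-promoting complex (APC/C) ends it by marking cyclin B and securin for destruction. Many genes of this machinery are switched on together late in the cell cycle through promoter elements bound by the DREAM, MuvB and NF-Y complexes. Microglia are long-lived brain macrophages that renew slowly in the healthy brain and proliferate after injury.

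Libraries held 13795900 to 17836800 counts, so that even low members were counted in every library. The lowest count of a member in a library was 3 (Nek2) in the sham control group, 17 (Melk) in sham Vdr-cKO, 117 (Ttk) in MCAO control and 103 (Ttk) in MCAO Vdr-cKO libraries. Cx3cr1, a defining gene of microglia and the site of Cre, had mean levels of 4894, 2239.9, 2255 and 911 CPM (counts scaled to library size) in the sham control, sham Vdr-cKO, MCAO control and MCAO Vdr-cKO groups. Vdr was at 0.303, 0.359, 2.38 and 3.65 CPM, and counts over the whole gene do not check the loss of single exons. The 3 sham control libraries numbered 2, 4 and 5 stood apart from the other sham libraries on the third principal component of all genes, at -21.7 to -20.1 against -4.69 to 28.2. Nothing in the sources says whether each library came from a separate mouse, so p-values measure the spread between these libraries, which may be technical.

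Promoters of the members were read to show the elements these genes share. Of the 52 members, 45 have a promoter in the RefSeq table used (GRCm38.p6, 250 bases before to 50 after the annotated start). TTTGAA, the core of the cell cycle genes homology region (CHR), was searched on both strands and stands in 35 of these 45 promoters (77.8%, 95% Wilson interval 63.7% to 87.5%), against 18.1% of 27025 promoters of the same length. Within 50 bases of the start it stands in 71.1% of the members and 4.92% of all promoters. CCAAT, the NF-Y box, was also searched on both strands and stands in 33 of 45 (73.3%, interval 59.0% to 84.0%), against 37.9% of all promoters, and both motifs stand in 64.4% against 7.12%. Matches of the motifs share letters with each other in 2 members (Cdca8 and Kntc1). A match is a description of the sequence only, and intervals cover counting error alone. The 120 bases before the start are given for members with small and large responses, with CCAAT and TTTGAA (or their reverse complements ATTGG and TTCAAA) in capitals. Kif11 (chr19:37376262-37376381, plus strand), Top2a (chr11:99024190-99024309, minus strand) and Cdk1 (chr10:69352913-69353032, minus strand) hold both motifs. Espl1 (chr15:102296173-102296292, plus strand) holds both as well. Ccnb1 (chr13:100786487-100786606, minus strand) holds CCAAT without TTTGAA, and Ncaph (chr2:127133955-127134074, minus strand) holds neither. Kif11, Top2a, Cdk1, Espl1 and Ccnb1 all rose in sham Vdr-cKO libraries, and Ncaph was not called.
Kif11: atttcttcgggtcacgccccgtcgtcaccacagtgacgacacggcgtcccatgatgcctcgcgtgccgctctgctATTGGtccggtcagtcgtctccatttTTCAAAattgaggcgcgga
Top2a: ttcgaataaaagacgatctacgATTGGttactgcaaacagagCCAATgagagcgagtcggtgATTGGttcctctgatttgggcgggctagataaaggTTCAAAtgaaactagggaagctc
Cdk1: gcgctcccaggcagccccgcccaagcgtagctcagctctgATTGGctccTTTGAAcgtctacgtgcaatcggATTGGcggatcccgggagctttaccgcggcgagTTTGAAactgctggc
Espl1: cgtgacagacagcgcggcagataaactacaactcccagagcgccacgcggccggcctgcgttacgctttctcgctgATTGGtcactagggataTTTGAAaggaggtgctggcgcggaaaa
Ccnb1: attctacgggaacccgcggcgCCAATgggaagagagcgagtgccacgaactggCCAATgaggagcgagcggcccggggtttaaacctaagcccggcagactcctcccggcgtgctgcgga
Ncaph: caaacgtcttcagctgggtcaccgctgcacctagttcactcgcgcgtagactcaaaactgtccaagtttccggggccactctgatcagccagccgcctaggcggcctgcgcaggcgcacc

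In these sequences TTTGAA lies close to the start, at -19 in Kif11, -23 in Top2a, -15 and -71 in Cdk1 and -27 in Espl1, counted in bases from the annotated start to the first letter of the match. The 35 members with TTTGAA had a median log2 fold change of 1.36 between sham Vdr-cKO and sham control libraries, and the 10 members without it had 1.70. Of these, 18 of the 35 and 3 of the 10 rose, against 0.444% of all genes tested. The ranges of log2 fold change overlapped (0.39 to 2.22 with the motif, 0.15 to 2.27 without).

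The 52 genes together took 0.0293%, 0.0602%, 0.204% and 0.166% of all counts in the sham control, sham Vdr-cKO, MCAO control and MCAO Vdr-cKO groups. Their levels, in CPM scaled by TMM (trimmed mean of M values) over all libraries, summed to 261, 289.7, 278, 258 and 252 in the 5 sham control libraries (mean 268 ± 15.7, SD, n = 5). The 3 sham Vdr-cKO libraries stood at 635, 589 and 429 (551 ± 108, SD, n = 3). Every sham Vdr-cKO library lay above every sham control library, and replicate 3 was the lowest of the former. After MCAO the sums were 3171, 1825, 2120.0 and 1811 in control (2232 ± 642, SD, n = 4) and 1902, 1786, 1715 and 1832 in Vdr-cKO libraries (1809 ± 78.6, SD, n = 4). The MCAO groups overlapped, and MCAO control replicate 1 stood far above the other libraries. Group means thus differed 2.06-fold between genotypes after sham and 0.810-fold after MCAO, and MCAO against sham 8.33-fold in control and 3.28-fold in Vdr-cKO mice. In RNA of bulk cells, a larger share of dividing cells and more RNA of these genes in each cell cannot be told apart.

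**Figure D1:**
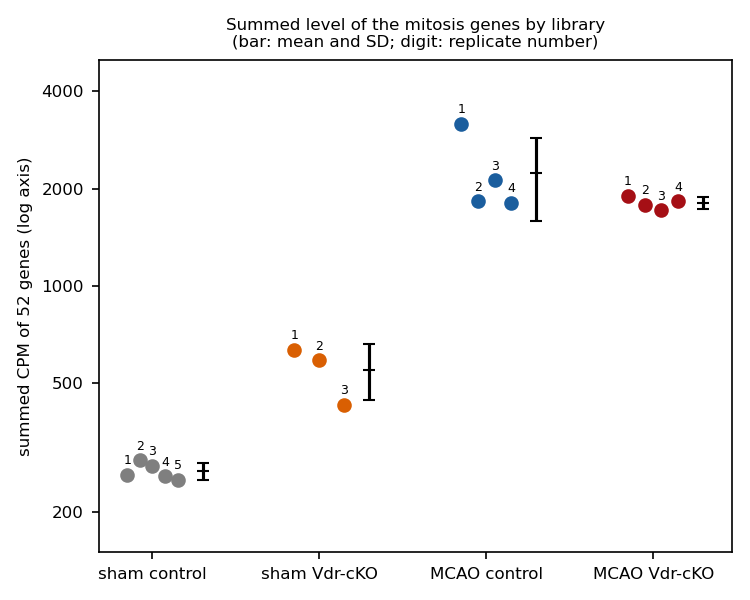
Summed CPM of the 52 mitosis genes (log axis) in each library of the 4 groups, with the mean and SD of each group beside the points and replicate numbers above them. The 3 sham Vdr-cKO libraries (429 to 635) lie above the 5 sham control libraries (252 to 289.7), and the MCAO groups overlap.

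After the sham procedure, Vdr-cKO microglia/macrophages carried more RNA of the mitotic machinery than controls. All 52 members had a log2 fold change above 0, with a median of 1.38 (a 2.61-fold difference), against a median of -0.02 over the 16425 genes tested. Nuf2, a subunit of the NDC80 complex that binds microtubules at the kinetochore, had the largest change at 2.27 and Ncaph, a subunit of condensin I, the smallest at 0.15. By edgeR with an adjusted p under 0.05, 25 members rose and 0 fell, while 0.444% of all genes tested rose and 0.0244% fell. Without adjustment (edgeR p under 0.05), 50 were higher and 0 lower, against 979 and 857 of the 16425 genes tested. With DESeq2, 44 rose and 0 fell, and no count over all genes was made. In 46 members every sham Vdr-cKO library was above every sham control library, which held for 5.22% of all genes tested. The members with overlapping groups were Melk, Cenpf, Smc2, Smc4, Ncaph and Kif15.

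These calls rested on few libraries. Without sham Vdr-cKO replicate 1 or replicate 2 the count was 0 in each case, and without sham control replicate 5 it was 11, while median log2 fold changes over these and the other single omissions stayed between 1.33 and 1.61. Without sham control replicates 2, 4 and 5, the libraries that stood apart, 0 members were called and the median was 1.39. The summed levels of those 3 libraries (252 to 289.7 CPM) enclosed those of the other 2 sham control libraries (261 and 278). Only the sham control columns of the count table carry the ending of a read file in their names, so handling and genotype cannot be told apart among sham libraries. The same limit holds for MCAO against sham in control mice and for the interaction, which use these libraries.

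After MCAO, the members were at or slightly below the control level in Vdr-cKO libraries, and 1 gene was called. Anln, which encodes anillin, a scaffold of the contractile ring, fell (log2 fold change -0.65, SE 0.16, edgeR adjusted p = 0.0382, where SE is the standard error). Of the 52 members 49 had a log2 fold change below 0, with a median of -0.30, against 0.01 over the 15286 genes tested. Those above 0 were Ncapg2 at 0.37, Cdc20 at 0.02 and Espl1 at 0.01. The counts were 0 higher and 1 lower by edgeR (adjusted p under 0.05), against 3.24% and 1.64% of all genes tested. Without adjustment 1 was higher (Ncapg2) and 13 were lower, against 1538 and 1459 of the 15286 genes tested. With DESeq2, 0 rose and 5 fell, and no count over all genes was made. In 8 members (Bub1, Ccnb1, Ccna2, Ncaph, Top2a, Mki67, Anln and Ect2) every Vdr-cKO library was below every control library, and 7.51% of all genes tested had that order. The median was -0.05 without MCAO control replicate 1, which was above its group mean for 52 of 52 members. The call of Anln was lost without any 1 of MCAO control replicates 3 and 4 and of the 4 MCAO Vdr-cKO libraries, with adjusted p between 0.0510 and 0.0944 from edgeR.

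**Figure D2:**
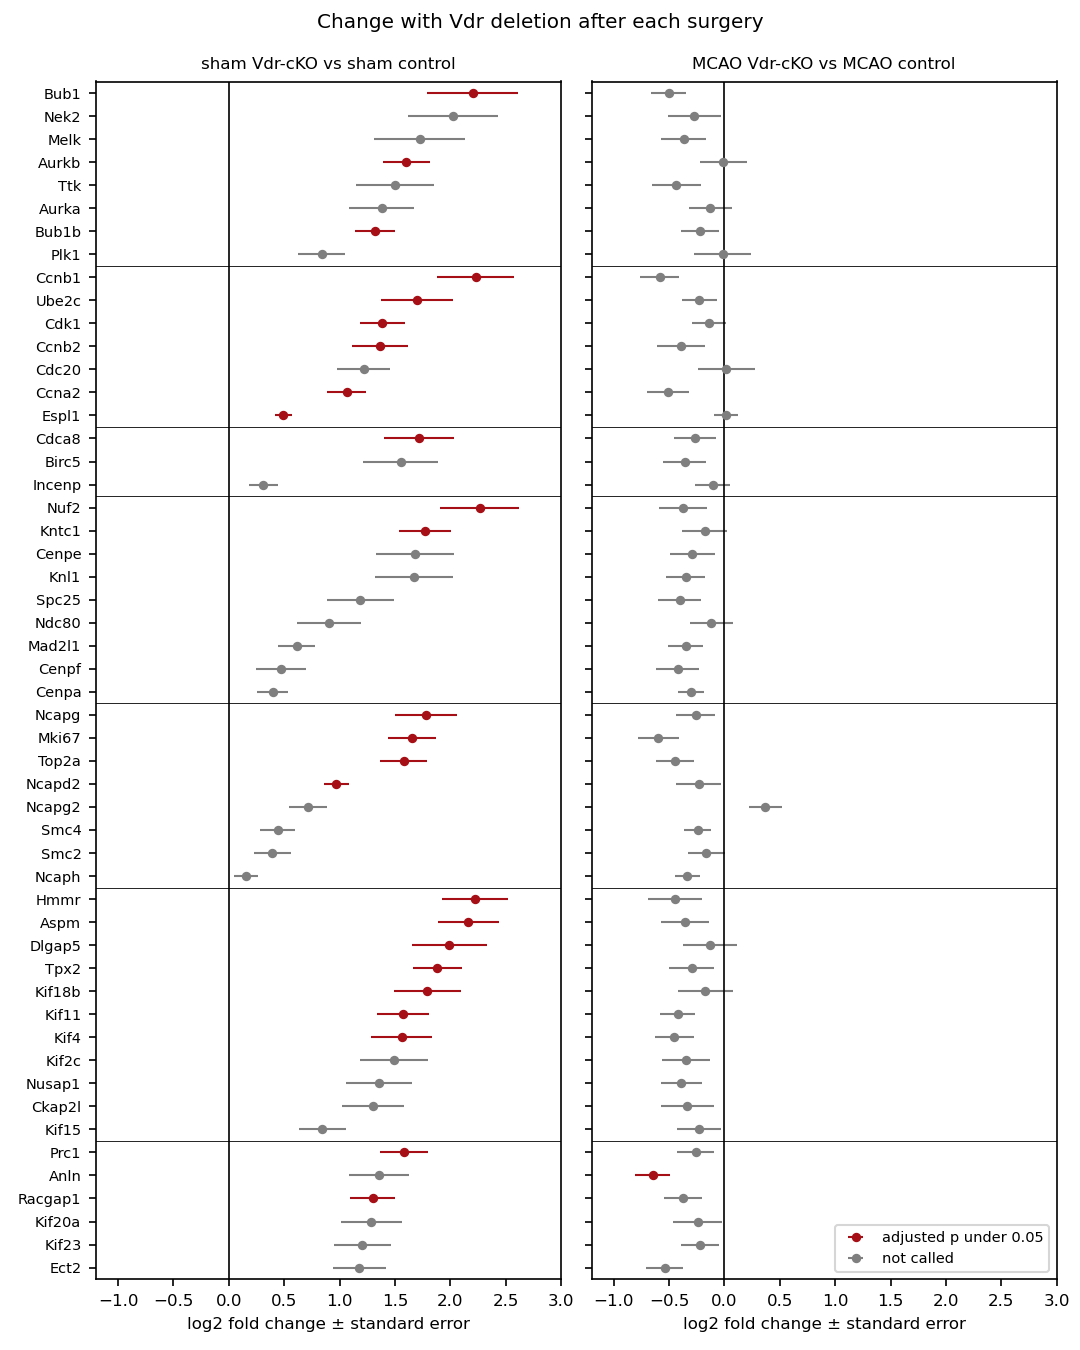
Log2 fold change between Vdr-cKO and control libraries of each member, by role, after sham (left) and after MCAO (right), from edgeR. Points are fitted values and bars are standard errors, with genes of an adjusted p under 0.05 in red (25 after sham, 1 after MCAO). All values after sham are above 0, from 0.15 to 2.27, and after MCAO they run from -0.65 to 0.37.

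All members rose after MCAO in both genotypes. In control mice 52 of 52 rose and 0 fell (edgeR, adjusted p under 0.05; 0 also at an unadjusted p under 0.05 and by DESeq2), where 31.2% of all genes tested rose and 32.3% fell. The median log2 fold change was 3.61, a 12.2-fold rise, and it ran from 0.78 for Ncaph to 5.20 for Ccnb1, the cyclin B1 gene. In Vdr-cKO mice 52 of 52 rose and 0 fell (0 also unadjusted and by DESeq2), where 29.3% and 28.8% of all genes did. The median there was 1.88, a 3.69-fold rise, from 0.27 for Ncaph to 3.60 for Ncapg2, a subunit of condensin II. Every MCAO library was above every sham library for all 52 members in both comparisons, an order that 28.3% of all genes tested had in control mice and 30.1% in Vdr-cKO mice. These comparisons share their libraries with those between genotypes. In control mice, surgery cannot be told apart from any separate handling of the sham control libraries.

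The change with genotype after MCAO was lower than that after sham for most members. In a fit of all 16 libraries the interaction term was below 0 for 52 of 52 members (median log2 difference -1.78, against -0.01 over 17335 genes), and 41 were called lower and 0 higher by edgeR. Of all genes tested 1.15% were called lower and 1.4% higher. Without adjustment (edgeR p under 0.05), 50 members were lower and 0 higher, against 1333 and 1229 of the 17335 genes. By DESeq2, 0 members were higher. Differences ran from -2.84 for Ccnb1 to -0.38 for Ncapg2. The members not called were Plk1, Cdc20, Espl1, Incenp, Cenpf, Ndc80, Smc2, Smc4, Ncapg2, Ncaph and Kif15. Without sham control replicates 2, 4 and 5 the count was 26. Any separate handling of the sham control libraries enters this term and cannot be told apart from it.

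**Figure D3:**
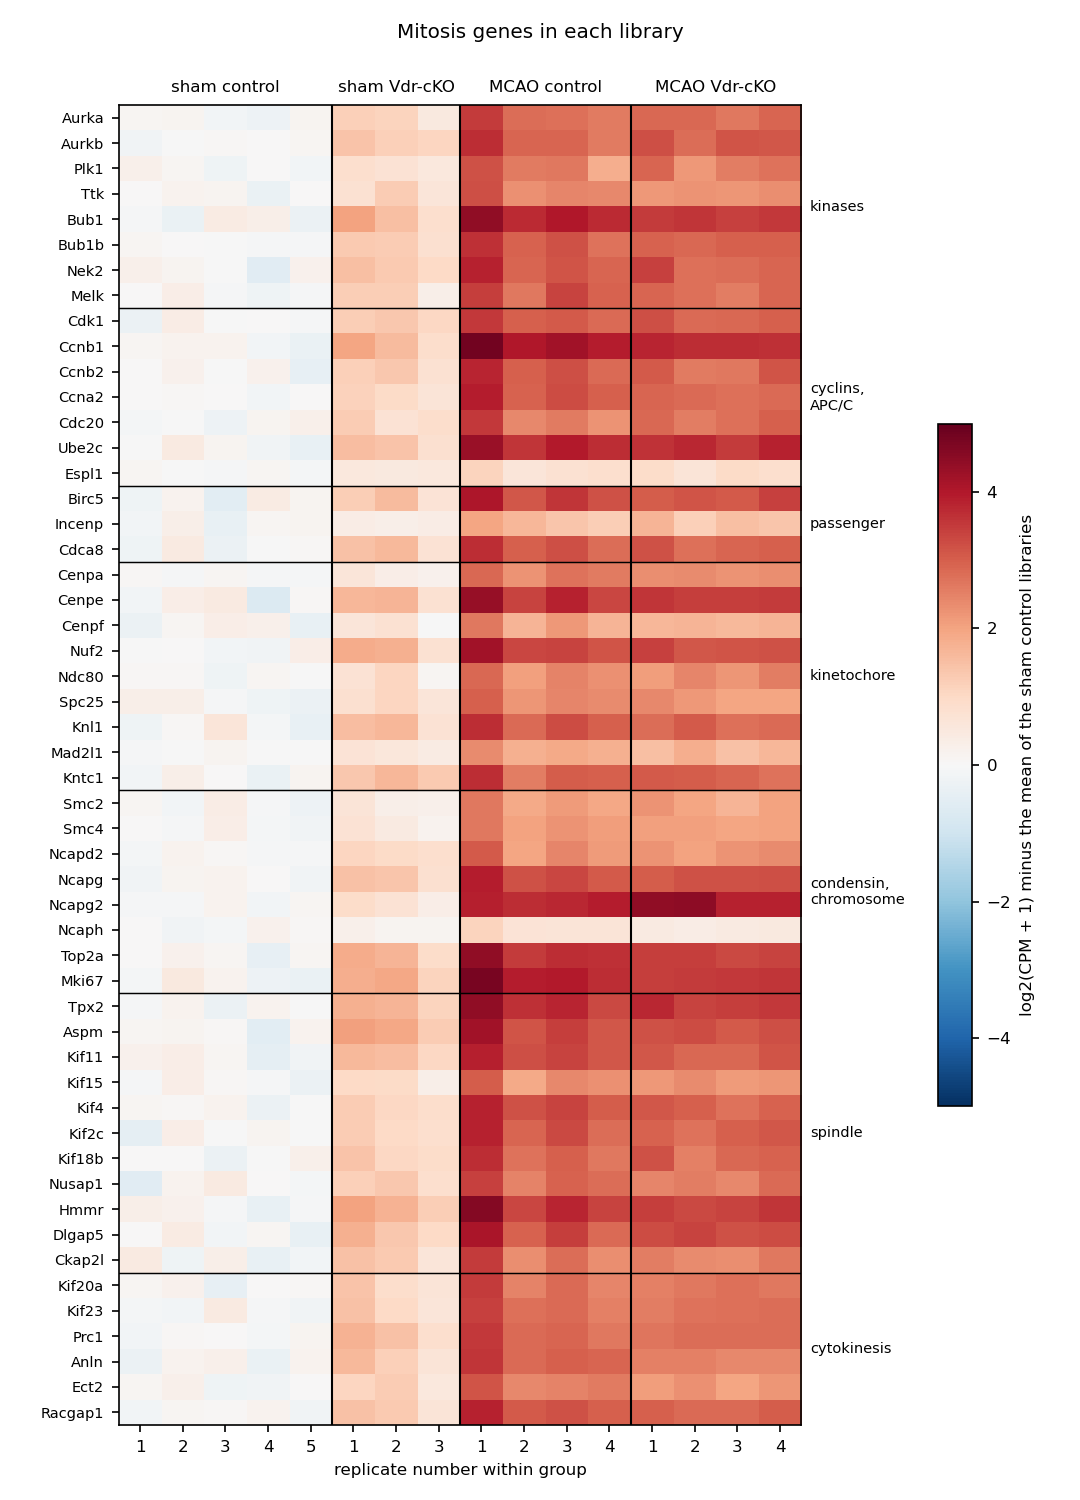
Level of each member (rows, by role) in each of the 16 libraries (columns, by group and replicate number), as log2(CPM + 1) minus the mean of the sham control libraries. All 3 sham Vdr-cKO libraries are shifted up, least in replicate 3, and MCAO control replicate 1 is the darkest MCAO control column.

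Of the 8 mitotic kinases, 3 rose in sham Vdr-cKO libraries (Aurkb, Bub1 and Bub1b), 0 changed with genotype after MCAO, and 7 had a lower interaction term. Of all genes tested 0.444% rose after sham and 1.15% were called lower in the interaction, the shares for the roles below too. After MCAO 3.24% of all genes tested rose and 1.64% fell. A count of 0 there says little about a role this small, here and in the roles below. All 8 kinases had log2 fold changes below 0 after MCAO. Bub1 encodes a checkpoint kinase that sits at kinetochores. Bub1 stood at 0.823, 0.536, 1.56, 1.34 and 0.567 CPM in the sham control libraries and at 6.79, 4.46 and 2.43 CPM in the sham Vdr-cKO libraries. The groups did not overlap, and Bub1 rose with genotype (log2 fold change 2.20, SE 0.41, edgeR adjusted p = 0.0465). Bub1 reached 41.1, 24.2, 29.5 and 24.4 CPM in the MCAO control libraries and 20.9, 21.9, 19.4 and 21.1 CPM in the MCAO Vdr-cKO libraries. Here the Vdr-cKO libraries were all lower than the control libraries, a difference that was not called (log2 fold change -0.50, SE 0.16, edgeR adjusted p = 0.104). Bub1b encodes BubR1, a part of the mitotic checkpoint complex that holds back the APC/C. Bub1b levels were 3.58, 3.39, 3.24, 3.104 and 3.15 CPM in sham control and 9.56, 9.26 and 6.41 CPM in sham Vdr-cKO libraries. Its sham groups were apart as well (log2 fold change 1.32, SE 0.18, edgeR adjusted p = 0.0113). After MCAO, Bub1b stood at 53.5, 31.7, 38.4 and 27.5 CPM in control and 31.95, 30.4, 33.2 and 32.9 CPM in Vdr-cKO libraries. The MCAO groups overlapped. Aurkb, the kinase of the chromosomal passenger complex that corrects faulty attachments, rose by 1.60 on the log2 scale after sham and differed by -0.01 after MCAO. Aurka and Plk1, kinases of spindle poles and mitotic entry, had sham differences of 1.38 and 0.84, which were not called (adjusted p = 0.0889 and 0.164 from edgeR). Nek2, a centrosome kinase, and Ttk and Melk had 2.03, 1.5 and 1.73, also not called.

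Among the 7 genes of cyclins, CDK1 and the APC/C pathway, 6 rose in sham Vdr-cKO libraries, against 0.444% of all genes tested. After MCAO 0 changed with genotype, where 3.24% of all genes tested rose and 1.64% fell. Ccnb1 encodes cyclin B1, the partner of CDK1. Ccnb1 stood at 1.12, 1.25, 1.23, 0.791 and 0.567 CPM in the sham control libraries and at 6.79, 4.98 and 2.61 CPM in the sham Vdr-cKO libraries. The sham groups did not overlap, and Ccnb1 rose (log2 fold change 2.23, SE 0.35, edgeR adjusted p = 0.0208). Ccnb1 reached 54.8, 30.4, 35.7 and 29.3 CPM in the MCAO control libraries and 26.6, 24.6, 24.4 and 23.5 CPM in the MCAO Vdr-cKO libraries. After MCAO the order was reversed with no overlap, without a call (log2 fold change -0.59, SE 0.18, edgeR adjusted p = 0.0899), and its interaction term was the lowest of all members (log2 difference -2.84, SE 0.38, edgeR adjusted p = 0.000411). Ccna2 encodes cyclin A2, which acts in S phase and at mitotic entry. Ccna2 levels were 3.996, 4.11, 3.89, 3.47 and 3.97 CPM in sham control and 9.75, 8.57 and 6.64 CPM in sham Vdr-cKO libraries. It rose after sham (log2 fold change 1.06, SE 0.18, edgeR adjusted p = 0.0262), and 12.5% of its exon bases overlap Exosc9 on the opposite strand. After MCAO, Ccna2 stood at 72.7, 37.2, 45.5 and 38.1 CPM in control and 35.4, 33.9, 31.9 and 33.4 CPM in Vdr-cKO libraries. These groups did not overlap, and the difference was not called (log2 fold change -0.51, SE 0.19, edgeR adjusted p = 0.158).

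Ube2c is the ubiquitin-conjugating enzyme that works with the APC/C. Ube2c stood at 1.41, 2.32, 1.69, 1.16 and 0.882 CPM in the sham control libraries and at 6.17, 5.500 and 3.26 CPM in the sham Vdr-cKO libraries. Ube2c rose after sham (log2 fold change 1.70, SE 0.32, edgeR adjusted p = 0.0491), close to the threshold. Ube2c reached 48.2, 27.9, 37.6 and 30.5 CPM in the MCAO control libraries and 28.6, 32.5, 26.9 and 34.2 CPM in the MCAO Vdr-cKO libraries. The MCAO groups overlapped, and 22.8% of its exon bases overlap Tnnc2 on the opposite strand. Cdc20 encodes the activator of the APC/C that the checkpoint inhibits. Cdc20 levels were 1.998, 2.204, 1.69, 2.56 and 2.898 CPM in sham control and 6.91, 4.400 and 4.92 CPM in sham Vdr-cKO libraries. The groups did not overlap, but Cdc20 was not called (log2 fold change 1.22, SE 0.24, edgeR adjusted p = 0.0605). After MCAO, Cdc20 stood at 36.8, 16.3, 18.6 and 14.5 CPM in control and 22.8, 18.2, 20.8 and 24.6 CPM in Vdr-cKO libraries. The MCAO groups overlapped, with the highest level in control replicate 1.

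Espl1 encodes separase, the protease that cuts cohesin to release sister chromatids, and its pattern was flatter than that of the other members of this role. Espl1 stood at 35.97, 32.7, 32.4, 35.7 and 31.1 CPM in the sham control libraries and at 48.4, 47.4 and 48.6 CPM in the sham Vdr-cKO libraries. The replicates lay close together and Espl1 rose (log2 fold change 0.49, SE 0.08, edgeR adjusted p = 0.0208), a 1.40-fold difference. Espl1 reached 72.8, 51.8, 57.8 and 60.8 CPM in the MCAO control libraries and 63.4, 52.98, 66.2 and 59.96 CPM in the MCAO Vdr-cKO libraries. After MCAO the genotypes overlapped, with a log2 fold change of 0.01. Cdk1 and Ccnb2, the kinase and cyclin B2, rose by 1.38 and 1.36 on the log2 scale after sham and differed by -0.14 and -0.39 after MCAO.

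The 3 partners of the chromosomal passenger complex differed. Cdca8, the borealin gene, rose by 1.72 on the log2 scale after sham, while Birc5 and Incenp were not called. Birc5 encodes survivin. Birc5 levels were 1.29, 2.02, 0.843, 2.56 and 1.95 CPM in sham control and 5.31, 6.95 and 3.32 CPM in sham Vdr-cKO libraries. The sham groups did not overlap, with a log2 fold change of 1.55 (adjusted p = 0.0937 from edgeR). After MCAO, Birc5 stood at 42.8, 22.2, 30.9 and 23.2 CPM in control and 20.6, 22.6, 21.6 and 27.1 CPM in Vdr-cKO libraries. The MCAO groups overlapped. Incenp encodes the scaffold of the complex. Incenp stood at 20.5, 27.5, 17.1, 23.9 and 24.9 CPM in the sham control libraries and at 29.2, 28.1 and 29.1 CPM in the sham Vdr-cKO libraries. Every Vdr-cKO library was above every control library by a small margin, and Incenp was not called (log2 fold change 0.31, SE 0.13, edgeR adjusted p = 0.426). Incenp reached 90.7, 72.4, 60.2 and 53.8 CPM in the MCAO control libraries and 75.9, 53.1, 65.3 and 61.03 CPM in the MCAO Vdr-cKO libraries. The groups overlapped after MCAO. Per kilobase of exon, Incenp had the highest sham control level of all members, 5.26 CPM per kb.

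**Figure D4:**
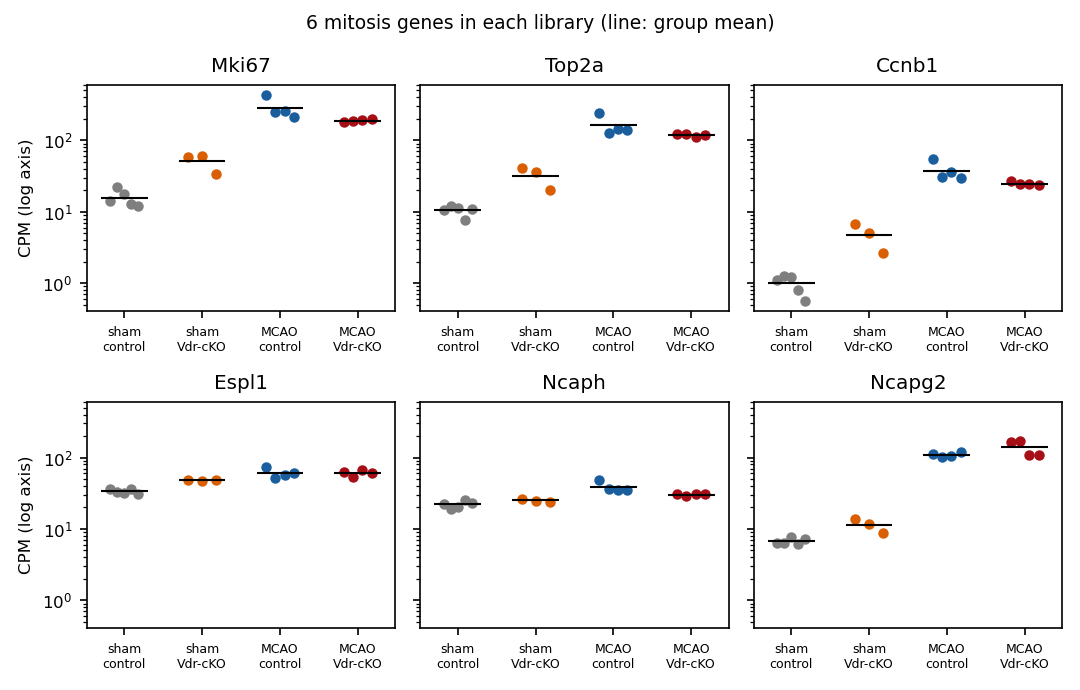
CPM (log axis) of 6 members in each library of the 4 groups, with lines at group means. Mki67, Top2a and Ccnb1 separate the sham groups, Espl1 separates them by a smaller step, Ncaph overlaps between them, and Ncapg2 is the member with the largest positive difference between genotypes after MCAO (0.37 on the log2 scale).

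Of 9 kinetochore and checkpoint genes, 2 rose in sham Vdr-cKO libraries, against 0.444% of all genes tested. They were Nuf2 and Kntc1, a subunit of the RZZ complex. After MCAO 0 changed with genotype, where 3.24% of all genes tested rose and 1.64% fell. Nuf2 levels were 0.882, 0.953, 0.713, 0.6696 and 1.39 CPM in sham control and 5.86, 5.56 and 2.25 CPM in sham Vdr-cKO libraries. Nuf2 rose with no overlap between groups (log2 fold change 2.27, SE 0.36, edgeR adjusted p = 0.0208). After MCAO, Nuf2 stood at 34.04, 18.5, 18.6 and 15.9 CPM in control and 19.2, 15.2, 15.7 and 16.3 CPM in Vdr-cKO libraries. These groups overlapped, with MCAO control replicate 1 far above the rest. Cenpa encodes the histone H3 variant that marks centromeres. Cenpa stood at 10.3, 9.53, 10.8, 9.43 and 9.58 CPM in the sham control libraries and at 15.7, 12.9 and 11.6 CPM in the sham Vdr-cKO libraries. The sham groups were apart by less than 1 CPM and Cenpa was not called (log2 fold change 0.40, SE 0.14, edgeR adjusted p = 0.351). Cenpa reached 79.3, 50.5, 70.2 and 65.1 CPM in the MCAO control libraries and 53.2, 55.4, 50.9 and 53.2 CPM in the MCAO Vdr-cKO libraries. The MCAO groups overlapped, since control replicate 2 was below every Vdr-cKO library. Cenpf encodes a large protein of the outer kinetochore. Cenpf levels were 7.76, 10.4, 12.4, 11.8 and 7.31 CPM in sham control and 15.5, 17.02 and 9.55 CPM in sham Vdr-cKO libraries. These groups overlapped (log2 fold change 0.47, SE 0.23, edgeR adjusted p = 0.468). After MCAO, Cenpf stood at 66.2, 33.4, 46.6 and 33.6 CPM in control and 32.9, 34.1, 31.9 and 33.8 CPM in Vdr-cKO libraries. No MCAO difference was called. The others, the kinesin gene Cenpe, the NDC80 complex genes Ndc80 and Spc25, the scaffold gene Knl1 and the checkpoint gene Mad2l1, had sham differences of 1.68, 0.91, 1.19, 1.67 and 0.61, not called.

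Of the 8 genes of condensin, topoisomerase II and the chromosome surface, 4 rose in sham Vdr-cKO libraries, against 0.444% of all genes tested. After MCAO 0 changed with genotype, where 3.24% of all genes tested rose and 1.64% fell. Mki67 encodes Ki-67, which coats mitotic chromosomes and marks cycling cells. Mki67 stood at 14.2, 22.3, 17.8, 12.8 and 12.03 CPM in the sham control libraries and at 57.5, 60.96 and 34.04 CPM in the sham Vdr-cKO libraries. The sham groups did not overlap, and Mki67 rose (log2 fold change 1.65, SE 0.22, edgeR adjusted p = 0.00998). Mki67 reached 434, 247, 257 and 211 CPM in the MCAO control libraries and 181, 184, 189.7 and 196 CPM in the MCAO Vdr-cKO libraries. After MCAO all Vdr-cKO levels were below those of the control libraries, without a call (log2 fold change -0.60, SE 0.19, edgeR adjusted p = 0.0963). Top2a encodes topoisomerase II alpha, which untangles sister DNA. Top2a levels were 10.5, 12.03, 11.3, 7.55 and 11.1 CPM in sham control and 40.5, 35.5 and 20.3 CPM in sham Vdr-cKO libraries. Top2a rose too (log2 fold change 1.58, SE 0.21, edgeR adjusted p = 0.00998). After MCAO, Top2a stood at 243, 126, 145 and 141 CPM in control and 124, 123, 110.4 and 118 CPM in Vdr-cKO libraries. The order of the MCAO groups was the same as for Mki67, again not called (log2 fold change -0.45, SE 0.18, edgeR adjusted p = 0.187).

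Condensin folds chromosomes, and the calls fell on some of its subunits. The condensin I genes Ncapd2 and Ncapg rose by 0.97 and 1.78 on the log2 scale after sham. Ncaph, of the same complex, had the smallest log2 fold change of all members after sham and in both comparisons of surgery. Ncaph stood at 22.1, 19.1, 20.6, 25.7 and 22.9 CPM in the sham control libraries and at 26.7, 24.4 and 24.1 CPM in the sham Vdr-cKO libraries. These groups overlapped (log2 fold change 0.15, SE 0.11, edgeR adjusted p = 0.620). Ncaph reached 48.4, 36.4, 34.6 and 34.7 CPM in the MCAO control libraries and 30.7, 28.7, 30.6 and 31.05 CPM in the MCAO Vdr-cKO libraries. Every Vdr-cKO library was below every control library after MCAO, without a call (log2 fold change -0.33, SE 0.11, edgeR adjusted p = 0.123). Smc2 encodes a core ATPase shared by both condensins. Smc2 levels were 14.3, 12.2, 17.5, 12.7 and 11.03 CPM in sham control and 21.6, 16.7 and 16.4 CPM in sham Vdr-cKO libraries. The groups overlapped (log2 fold change 0.39, SE 0.17, edgeR adjusted p = 0.424), as did those of its partner Smc4 at 0.44. After MCAO, Smc2 stood at 87.9, 52.7, 61.6 and 53.96 CPM in control and 68.1, 55.6, 45.9 and 57.4 CPM in Vdr-cKO libraries. Smc2 also overlapped between genotypes after MCAO. Ncapg2, a condensin II gene, had the highest log2 fold change of all members after MCAO. Ncapg2 stood at 6.46, 6.43, 7.71, 6.15 and 7.31 CPM in the sham control libraries and at 13.8, 11.8 and 8.72 CPM in the sham Vdr-cKO libraries. The sham groups were apart but not called (log2 fold change 0.72, SE 0.17, edgeR adjusted p = 0.142). Ncapg2 reached 113, 100.3, 105 and 118 CPM in the MCAO control libraries and 165, 172, 110.3 and 109.8 CPM in the MCAO Vdr-cKO libraries. Vdr-cKO replicates 1 and 2 were above every control library and replicates 3 and 4 were within the control range, and the difference was not called (log2 fold change 0.37, SE 0.15, edgeR adjusted p = 0.204).

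Of the 11 spindle motors and spindle proteins, 7 rose in sham Vdr-cKO libraries, against 0.444% of all genes tested. After MCAO 0 changed with genotype, where 3.24% of all genes tested rose and 1.64% fell. In the interaction 10 were lower, against 1.15% of all genes tested. Tpx2 encodes the activator of Aurora A on spindle microtubules. Tpx2 levels were 2.23, 2.74, 1.75, 2.74 and 2.27 CPM in sham control and 10.5, 9.84 and 6.23 CPM in sham Vdr-cKO libraries. Tpx2 rose (log2 fold change 1.88, SE 0.22, edgeR adjusted p = 0.00578), with no overlap. After MCAO, Tpx2 stood at 70.4, 40.6, 45.1 and 32.2 CPM in control and 44.8, 33.9, 35.9 and 37.5 CPM in Vdr-cKO libraries. The MCAO groups overlapped. Hmmr encodes a spindle pole protein that also binds hyaluronan. Hmmr stood at 1.88, 1.73, 1.23, 0.791 and 1.26 CPM in the sham control libraries and at 8.58, 6.83 and 4.45 CPM in the sham Vdr-cKO libraries. It rose after sham (log2 fold change 2.22, SE 0.30, edgeR adjusted p = 0.00998). Hmmr reached 56.02, 22.95, 31.9 and 23.6 CPM in the MCAO control libraries and 24.8, 22.3, 23.7 and 27.2 CPM in the MCAO Vdr-cKO libraries. The MCAO groups overlapped and replicate 1 was the highest control library. Kif11 encodes the kinesin Eg5, which pushes spindle poles apart. Kif11 levels were 4.701, 5.12, 4.28, 2.56 and 3.28 CPM in sham control and 14.1, 13.4 and 9.01 CPM in sham Vdr-cKO libraries. Kif11 rose (log2 fold change 1.58, SE 0.24, edgeR adjusted p = 0.0188). After MCAO, Kif11 stood at 71.3, 44.1, 50.5 and 41.2 CPM in control and 41.6, 34.7, 35.04 and 41.7 CPM in Vdr-cKO libraries. Vdr-cKO replicates 1 and 4 were within the control range and replicates 2 and 3 below it. Aspm and Dlgap5, genes of spindle pole and spindle assembly proteins, rose by 2.16 and 1.99, and the kinesin genes Kif18b and Kif4 by 1.79 and 1.56. Kif15, Kif2c, Nusap1 and Ckap2l had 0.85, 1.49, 1.36 and 1.30 and were not called.

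Among the 6 genes of cytokinesis, 2 rose in sham Vdr-cKO libraries (Prc1 and Racgap1), against 0.444% of all genes tested. After MCAO 1 fell (Anln), against 1.64% of all genes tested. All 6 were lower in the interaction, against 1.15%. Prc1 bundles microtubules of the central spindle. Prc1 stood at 3.29, 3.87, 3.695, 3.41 and 4.16 CPM in the sham control libraries and at 14.7, 11.8 and 7.35 CPM in the sham Vdr-cKO libraries. Prc1 rose (log2 fold change 1.58, SE 0.22, edgeR adjusted p = 0.00998), and 11.1% of its exon bases overlap Rccd1 on the opposite strand. Prc1 reached 53.02, 32.5, 33.9 and 28.3 CPM in the MCAO control libraries and 28.6, 31.3, 31.2 and 31.2 CPM in the MCAO Vdr-cKO libraries. The MCAO groups overlapped. Racgap1 encodes a subunit of centralspindlin. Racgap1 levels were 4.76, 5.72, 5.45, 6.03 and 4.47 CPM in sham control and 16.4, 14.7 and 8.72 CPM in sham Vdr-cKO libraries. Racgap1 rose (log2 fold change 1.30, SE 0.20, edgeR adjusted p = 0.0208). After MCAO, Racgap1 stood at 88.7, 50.8, 56.6 and 48.4 CPM in control and 49.3, 43.3, 43.9 and 50.4 CPM in Vdr-cKO libraries. Vdr-cKO replicates 1 and 4 were within the control range. Anln lies on chromosome 9 of GRCm38 from 22332012 to 22389188. Anln stood at 2.703, 4.17, 4.41, 2.56 and 4.16 CPM in the sham control libraries and at 13.02, 9.21 and 6.11 CPM in the sham Vdr-cKO libraries. The sham groups did not overlap, but Anln was not called there (log2 fold change 1.36, SE 0.27, edgeR adjusted p = 0.0635). Anln reached 53.1, 31.2, 34.7 and 32.7 CPM in the MCAO control libraries and 24.9, 25.2, 22.9 and 22.9 CPM in the MCAO Vdr-cKO libraries. No library overlapped after MCAO, and the interaction term was -2.03. Ect2, which acts with centralspindlin, had 1.18 after sham and -0.54 after MCAO, neither called. Kif20a and Kif23, kinesin genes of the central spindle, had 1.29 and 1.21 after sham.

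For the 23 members given in every library, 2-sided exact permutation tests of group mean CPM gave p = 0.0357 after sham for 20 genes, the smallest value that 3 against 5 libraries allow here. After MCAO the exact test gave p = 0.0286, the smallest for 4 against 4, for 7 of the 23. These p-values are not adjusted, and the 23 include members picked for the size of their change in these same comparisons, so the counts are a description. Over all 52 members, groups did not overlap in 46 after sham (5.22% of all genes tested) and in 8 after MCAO (7.51%).

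The level in sham control libraries differed among members, and the highest, listed here, had differences with genotype below the median of the members. Among them Espl1 and Ncapd2 still rose. Per kilobase of exon, the highest were Incenp (5.26 CPM per kb), Ncaph (5.13), Espl1 (3.84), Smc4 (3.06), Smc2 (2.48) and Ncapd2 (2.33). Their log2 fold changes after sham were 0.31, 0.15, 0.49, 0.44, 0.39 and 0.97, all below the median of 1.38. After MCAO in control mice the order was another one, with Mki67 (28.5 CPM per kb), Ccnb2 (19.5) and Top2a (18.2) highest. Over the 16 libraries, with group means subtracted, the median Pearson correlation between pairs of members was 0.58 (1326 pairs, which share libraries and scaling), against -0.000577 over pairs of all 17335 genes tested. Without MCAO control replicate 1 the median between members was 0.41.

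Other cell cycle lists had lower medians after sham than the 52 members, without a test of the difference. Over all genes tested after sham, 0.444% rose and 0.0244% fell. At an unadjusted p under 0.05 from edgeR, 979 of 16425 genes were higher and 857 lower. Of 73 other mitosis genes tested, 14 rose and 0 fell (40 and 0 at an unadjusted p under 0.05), with a median log2 fold change of 0.69. Fam83d, a spindle protein, rose by 2.26, Esco2, an acetyltransferase of cohesin, by 2.23, and Psrc1, a microtubule-binding protein, by 2.53. Foxm1, the transcription factor of the late cell cycle, stood at 7.01 ± 0.437 CPM (SD, n = 5) in sham control and 14.1 ± 2.90 CPM (SD, n = 3) in sham Vdr-cKO libraries (log2 fold change 0.97, adjusted p = 0.0208 from edgeR). Of 46 DNA replication genes 6 rose and 0 fell (29 and 0 unadjusted), with a median of 0.50, among them the helicase gene Mcm5 (0.97), the polymerase gene Pole (1.54), Dtl (1.94), a ubiquitin ligase subunit that limits relicensing of DNA, and Uhrf1 (1.60), which maintains DNA methylation. Of 35 genes of cell cycle entry and arrest 1 rose and 0 fell (10 and 3 unadjusted), with a median of 0.09.

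That gene was Cdkn1a, which encodes p21, an inhibitor of cyclin-dependent kinases. Its level was 24.4 ± 7.98 CPM (SD, n = 5) in sham control and 99.5 ± 24.4 CPM (SD, n = 3) in sham Vdr-cKO libraries, and the log2 fold change was 1.996 (SE 0.23, edgeR adjusted p = 0.00578). Cdkn1a thus rose in the same libraries as the 25 members. After MCAO it stood at 144 ± 24.3 CPM in control and 320.2 ± 42.8 CPM in Vdr-cKO libraries (SD, n = 4 each), and rose with genotype there too (1.17, adjusted p = 0.000322 from edgeR).

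After MCAO, 2 of 77 other mitosis genes rose with genotype and 1 fell, with a median of -0.19. Of all genes tested 3.24% rose and 1.64% fell. At an unadjusted p under 0.05 from edgeR, 1538 of 15286 genes were higher and 1459 lower. Psrc1 rose by 1.34, Ckap5, a microtubule polymerase, fell by 0.34, and Pttg1 rose. Pttg1 encodes securin, the inhibitor of separase, and stood at 13.5 ± 2.68 CPM in MCAO control and 30.3 ± 6.25 CPM in MCAO Vdr-cKO libraries (SD, n = 4 each; log2 fold change 1.18, SE 0.17, edgeR adjusted p = 0.00185). After sham Pttg1 stood at 19.3 ± 2.1 CPM (SD, n = 5) and 20.7 ± 1.89 CPM (SD, n = 3), and its interaction term was 1.08 (adjusted p = 0.00929 from edgeR), above 0 unlike those of all 52 members. Of 46 DNA replication genes 0 rose and 0 fell by edgeR (3 and 2 unadjusted), with a median of 0.02. Of 35 entry and arrest genes 5 rose and 0 fell (8 and 1 unadjusted). They were Cdkn1a, the cyclin D genes Ccnd1 (1.32) and Ccnd2 (1.04), Ccng1, a cyclin G gene (0.33), and Csf1, a growth factor of microglia (0.39).

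**Figure D5:**
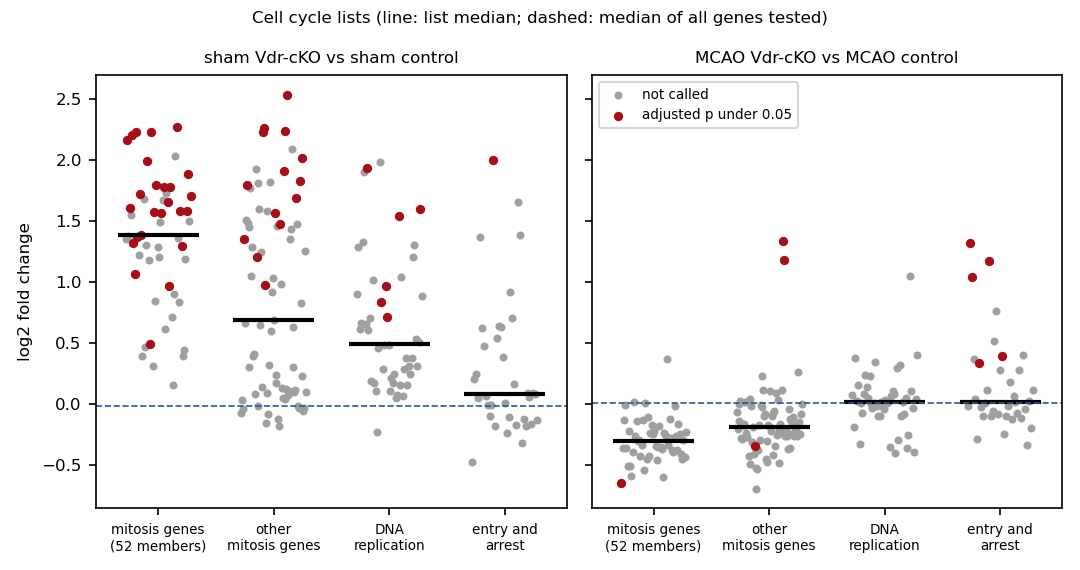
Log2 fold change between Vdr-cKO and control libraries of each gene tested in 4 cell cycle lists, after sham (left) and MCAO (right). Black lines are list medians (1.38, 0.69, 0.50 and 0.09 after sham, -0.30, -0.19, 0.02 and 0.01 after MCAO), the dashed line is the median of all genes tested, and genes with an adjusted p under 0.05 are red.

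Between surgeries, 70 of 77 other mitosis genes rose and 1 fell in control mice, as did 45 and 0 of 46 DNA replication genes (median 1.74). There 18 of 36 entry and arrest genes rose and 8 fell, and 31.2% of all genes tested rose and 32.3% fell. In Vdr-cKO mice 62, 43 and 17 of these lists rose and 0, 0 and 5 fell, where 29.3% and 28.8% of all genes tested did. The entry and arrest genes lay nearest to these shares in both genotypes. The interaction was lower for 26 of 77 other mitosis genes, 9 of 46 DNA replication genes and 3 of 36 entry and arrest genes (E2f7, E2f8 and Ccne1). It was higher for Pttg1 and Ccnd1. Of all genes tested 1.15% were called lower and 1.4% higher in the interaction.

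Markers of cell types were read beside these results. After sham, 0 of 10 microglia markers (1 at an unadjusted p under 0.05), 0 of 11 monocyte markers (1 unadjusted) and 0 of 8 neutrophil markers (0 unadjusted) changed with genotype by edgeR. Their summed levels overlapped, with 19133 to 24473 CPM in sham control and 21065 to 22553 CPM in sham Vdr-cKO libraries for microglia, 164 to 323 and 205 to 255 for monocytes, and 393 to 1524 and 680 to 1261 for neutrophils. Markers of neural progenitors and oligodendrocyte precursors, cells that divide in the adult brain, summed to 21.4 to 38.4 and 28.9 to 33.2 CPM, and those of lymphocytes to 10.3 to 12.3 and 8.66 to 10.9. Border macrophages, which also express Cx3cr1, had 0 of 6 markers called by edgeR. At an unadjusted p under 0.05 from edgeR, 4 were lower, as were 857 of the 16425 genes tested. All 6 had log2 fold changes below 0, with a median of -0.38, and their sums were 632 to 881 CPM in sham control and 550 to 673 CPM in sham Vdr-cKO libraries. Of 7 astrocyte markers 1 rose, the glutamate transporter gene Slc1a3 (149 and 592 CPM), and the sum of that list was 144 to 186 and 493 to 707. Slc1a3 carried that sum. The other 6 markers together averaged 22.3 CPM in sham control and 19.9 CPM in sham Vdr-cKO libraries, and 5 of them had log2 fold changes below 0. After MCAO, 3 of 12 monocyte markers rose with genotype, against 3.24% of all genes tested. The sums of that list were 2672 to 3995 CPM in control and 1637 to 4463 CPM in Vdr-cKO libraries. The series text describes a sort for intermediate CD45, a gate that would leave out cells of high CD45 such as infiltrating monocytes, while the methods describe CD11b microbeads.

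Genes of other marker lists also changed with genotype after MCAO. Of 6 border macrophage markers 2 fell, against 1.64% of all genes tested. Log2 fold changes were below 0 for 4 of the 6 and above 0 for 2, with a median of -0.39. Mrc1, the mannose receptor gene, averaged 364 CPM in MCAO control and 218 CPM in MCAO Vdr-cKO libraries (log2 fold change -0.72, edgeR adjusted p = 0.000239). F13a1, a coagulation factor gene, averaged 639 and 396 CPM (log2 fold change -0.68, edgeR adjusted p = 0.00692). The summed level of that list was 1291 to 1609 CPM in control and 844 to 1014 CPM in Vdr-cKO libraries, with no overlap. Lymphocyte markers summed to 3.46 to 6.4 and 7.33 to 21.1 CPM, also with no overlap, though 1 of 12 passed the filter and it was not called. The astrocyte marker Slc1a3 fell (log2 fold change -1.73, edgeR adjusted p = 0.0283), from a control group that ran from 118 to 496 CPM. Of the 7 astrocyte markers, 5 had log2 fold changes above 0 and 2 below 0. The 6 other than Slc1a3 together averaged 23.8 CPM in MCAO control and 27.3 CPM in MCAO Vdr-cKO libraries. The oligodendrocyte marker Cnp rose (0.78, edgeR adjusted p = 0.0065), the 1 called of 5 tested. Of these 5, 3 had log2 fold changes above 0 and 2 below 0, with a median of 0.21. Of 10 microglia markers 0 were called by edgeR (1 higher and 2 lower at an unadjusted p under 0.05). Between surgeries in control mice 31.2% of all genes tested rose and 32.3% fell. There 10 of 12 monocyte markers rose and 8 of 10 microglia markers fell, alongside the 52 members. The part of these cells in the members' values was not tested.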

How the data were processed

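RNA-sequencing of microglia/macrophages gave 16 libraries in 4 groups. Per the file headers and the labels, the authors deposited raw counts per gene for 32166 genes. The submitters' processing notes name bcl2fastq, TopHat, HISAT2 2.1.0, limma and GRCm38, while the counting tool, annotation and strand setting are not given in the sources used here. Without a known strand setting, reads of 6 members whose exons overlap an opposite-strand gene by more than 10% (Ccna2, Ube2c, Ncapg, Kif4, Kif20a and Prc1) may be shared with it. The methods describe CD11b microbeads and poly-A RNA. The series text describes flow sorting of CD11b+ cells with intermediate CD45, and the sample notes depletion of ribosomal RNA. These were not reconciled.

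Counts were filtered with filterByExpr and scaled by TMM, and edgeR 4.0.16 (quasi-likelihood test, R 4.3.3) was run on the libraries of the 2 groups compared. The interaction was fitted on all 16 libraries. P-values were adjusted by Benjamini-Hochberg over all genes tested. "Rose" and "fell" mean an adjusted p under 0.05. Standard errors were derived as the absolute log2 fold change divided by the square root of the F statistic of the quasi-likelihood test. CPM used TMM over all 16 libraries, and ± after CPM is the SD. Exons and positions came from GENCODE M21 (GRCm38), matched by identifier, and promoters from RefSeq (GRCm38.p6). The fits were run on simulated data with a single spread for all genes and no outlying library. That run does not bear on how the calls depend on single libraries.

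Values in every library are given for 23 members: Mki67, Top2a and Tpx2, the 2 with the highest mean CPM in each role, and the 3 with the largest and the 3 with the smallest log2 fold change in each comparison. Of other lists, up to 4 genes with the smallest adjusted p are named. Members, lists and tests were chosen with earlier results of these data known. The alternatives were RLE and upper quartile scaling, a minimum of 10 counts per library or no filter, limma-voom 3.58.1, DESeq2 1.42.0, the replicate number as a block, 1 fit of all libraries, an absolute log2 fold change above 1, and omission of libraries. Genes with no symbol (240) were kept in the fits. No per-sample column was left without a sample.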

Additional observations from a re-analysis of the deposited data

Results flagged for a closer look

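Of 159 groups of 4 or 5 libraries, 11 held a library whose gap to the others exceeded Dixon's limit, and chance gives about 1 in 20. MCAO control replicate 1 was high in 7 of them, with 24.7 CPM for Aurka (others 12.9 to 14.7), 15.9 for Ttk (7.74 to 8.64), 34.0 for Nuf2 (15.9 to 18.6), 26.6 for Mad2l1 (17.0 to 18.5), 48.4 for Ncaph (34.6 to 36.4), 243 for Top2a (126 to 145) and 53.1 for Anln (31.2 to 34.7). This library was above its group mean for 52 of 52 members. Sham control replicate 3 was high for Mad2l1 (4.80 CPM, others 4.11 to 4.23) and Kif23 (5.25 CPM, others 3.09 to 3.41). Sham control replicate 4 was low for Aspm (1.10 CPM, others 2.14 to 2.39), and MCAO Vdr-cKO replicate 1 was low for Prc1 (28.6 CPM, others 31.2 to 31.3). The change with genotype differed between MCAO and sham for 41 of 52 members by the interaction term.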

How the results depend on the processing

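The count of members higher in sham Vdr-cKO libraries (25) was 38 with no filter on low counts, 44 with DESeq2, 41 with all 16 libraries in 1 fit, 0 without sham control replicates 2, 4 and 5, and 0 to 30 with single libraries left out. The count lower after MCAO (1) was 5 with no filter, 5 with DESeq2, 0 with limma-voom, 0 with all 16 libraries in 1 fit, 0 without MCAO Vdr-cKO replicates 1 and 2, 0 with an absolute log2 fold change above 1, and 0 to 2 with single libraries left out. The interaction count (41) was 26 without sham control replicates 2, 4 and 5 and 34 to 44 with single libraries left out. Between surgeries, 45 to 52 members rose in control and 50 to 52 in Vdr-cKO mice under all alternatives run. The cause of these shifts was not tested.

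With the replicate number as a block, 0 members were called after sham (median log2 fold change 1.34), 1 fell after MCAO and 34 were lower in the interaction. The numbers were not taken as pairs, since correlations of same-numbered libraries ran from -0.23 to 0.01 after sham, -0.01 to 0.26 after MCAO, -0.08 to 0.09 between surgeries in control and -0.07 to 0.08 in Vdr-cKO mice.

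Small differences after MCAO changed sign. Espl1 was -0.00356 with upper quartile scaling and -0.0609 to 0.11 with single libraries left out, Cdc20 was -0.14 to 0.40, Incenp -0.21 to 0.0516 and Smc2 -0.26 to 0.0278. Of the values of named members under the alternatives, 295 after sham kept their direction and side of the threshold, 60 lost the call and 11 gained it. After MCAO these numbers were 341, 8 and 7, with 12 changes of sign. Low counts in sham libraries limit the precision of many members, among them those with the largest differences after sham. Sham control libraries held 9 to 21 reads of Ccnb1, 9 to 24 of Bub1, 11 to 22 of Nuf2 and 13 to 32 of Hmmr. The lowest counts were 3 for Nek2 in sham control and 17 for Melk in sham Vdr-cKO libraries.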
